A study of Mus musculus with 16 samples.

Results

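In mouse E14 embryonic stem cells, 10 genes made less new RNA in one wild-type line than in the other: Rin3, Tmem117, Hs6st3, Cemip, Htra1, Mbnl2, Igsf21, Tmem108, Pramel6 and Pramel7. They were chosen by name, for low newly synthesised RNA in the line labelled WT with Tir1/BirA o/e relative to the line labelled WT, from 32826 genes in the deposited tables. The values of that contrast in newly synthesised RNA are therefore a description, and nothing is read from how many of the 10 passed a threshold in it. AID-Yeats2 against Supt7l-/- is the comparison that uses none of the WT libraries; total RNA comes from the same lines, and the comparisons of AID-Tada3 and AID-Zzz3 draw on the WT libraries.

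The series covers mutants of SAGA and of ATAC, chromatin-modifying complexes that share a histone acetyltransferase module. New RNA, labelled with 4-thiouridine (4sU) for 15 minutes and purified, was sequenced in 14 libraries, and total RNA in 2. AID-Tada3 (project 1), AID-Yeats2 (project 2) and AID-Zzz3 (project 3) have 2 clones each and carry labels that name a subunit: Tada3 belongs to both complexes, Yeats2 and Zzz3 to ATAC. Supt7l-/- (project 2) has 2 clones labelled as lacking Supt7l, a core subunit of SAGA. WT with Tir1/BirA o/e, called Tir1/BirA WT here, and WT have 1 4sU library each in each of the 3 sequencing projects and 1 total RNA library each in project 1. Tir1 is a plant auxin receptor that directs proteins with an auxin degron to destruction, and BirA is a bacterial biotin ligase. Every line, both WT lines included, had auxin for 24 hours and grew with leukaemia inhibitory factor and inhibitors of Gsk3 and Mek. The labels say neither which mutant clones carry Tir1 or BirA, nor how those proteins were expressed, nor from which WT line a clone was derived. WT libraries of a line are not described as separate cultures, so their spread may be technical.

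The 10 genes belong to no single pathway. Htra1 encodes a secreted serine protease, Cemip a protein that binds hyaluronan and takes part in its breakdown, and Hs6st3 a Golgi enzyme that sulphates heparan sulphate, so these act on extracellular matrix. Igsf21, an immunoglobulin-superfamily adhesion protein, and Tmem108 are membrane proteins studied mainly in neurons, and Tmem117 is a membrane protein. Rin3 activates the endosomal GTPase Rab5, and Mbnl2 is a splicing regulator of the muscleblind family. Pramel6 and Pramel7 are neighbouring genes of the leucine-rich-repeat PRAME family, expressed in naive mouse embryonic stem cells. In those cells Pramel7 promotes the degradation of Uhrf1, the cofactor of the maintenance DNA methyltransferase.

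The genes also differ at their starts. RefSeq promoter windows (GRCm38.p6, 250 bases before to 50 after the start) were found for all 10 genes, Rin3 and Tmem108 having more than 1. The window of Pramel7 holds 1 CG dinucleotide and that of Pramel6 holds 3, against a median of 7 over 32851 mouse promoters. The first windows of Rin3 and Cemip hold 26 and 33, more than 83.1% and 91.4% of promoters. These 4 are shown because the pair of CG-poor promoters and the CG-rich ones belong to genes with the same direction between the WT lines. CG dinucleotides are in capitals.
Pramel7, chr2:87492369-87492668, minus strand: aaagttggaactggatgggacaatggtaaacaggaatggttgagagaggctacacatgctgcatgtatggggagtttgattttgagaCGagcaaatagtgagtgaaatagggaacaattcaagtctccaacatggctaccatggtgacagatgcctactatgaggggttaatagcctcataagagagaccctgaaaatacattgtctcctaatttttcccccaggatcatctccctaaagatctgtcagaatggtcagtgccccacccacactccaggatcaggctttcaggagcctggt
Pramel6, chr2:87506315-87506614, plus strand: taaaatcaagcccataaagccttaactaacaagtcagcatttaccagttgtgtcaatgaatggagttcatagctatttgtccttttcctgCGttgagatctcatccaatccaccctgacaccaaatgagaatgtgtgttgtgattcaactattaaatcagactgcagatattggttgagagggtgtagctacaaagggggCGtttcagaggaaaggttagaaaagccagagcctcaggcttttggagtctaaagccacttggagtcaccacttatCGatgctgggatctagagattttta
Rin3, chr12:102282824-102283123, plus strand: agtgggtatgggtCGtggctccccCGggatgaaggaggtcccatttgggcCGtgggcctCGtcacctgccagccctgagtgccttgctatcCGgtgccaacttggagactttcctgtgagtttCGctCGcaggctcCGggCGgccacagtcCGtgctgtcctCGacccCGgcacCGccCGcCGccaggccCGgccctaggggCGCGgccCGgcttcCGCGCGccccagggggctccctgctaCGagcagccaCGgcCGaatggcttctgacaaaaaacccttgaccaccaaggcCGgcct
Cemip, chr7:84086456-84086755, minus strand: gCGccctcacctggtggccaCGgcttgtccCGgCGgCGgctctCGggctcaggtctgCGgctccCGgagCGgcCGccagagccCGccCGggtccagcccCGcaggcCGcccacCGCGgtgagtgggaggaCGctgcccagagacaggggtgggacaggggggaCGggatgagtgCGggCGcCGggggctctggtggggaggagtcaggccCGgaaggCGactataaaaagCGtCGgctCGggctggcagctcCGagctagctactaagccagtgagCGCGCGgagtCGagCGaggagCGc
Of the other first windows, Hs6st3 holds 41 CG, Tmem117 40, Tmem108 39, Htra1 28, Igsf21 26 and Mbnl2 10. The second windows of Rin3 and Tmem108 hold 15 and 2, more than 65.4% and 14.1% of promoters, so Tmem108 also has a CG-poor window. The motif TATAAA, searched on both strands, was in the windows of Cemip and Tmem117 and in 13.6% of all promoters. The Pramel7 start used by RefSeq lies inside the span of that gene in the deposited tables.

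Sums of mouse gene counts were 8268061 to 15994518 in the 4sU libraries and 4903998 and 6378707 in total RNA. Summed levels of the 9 embryonic stem cell markers in the tables were 2480 to 3050 CPM (read counts scaled to library size by TMM) over the 4sU libraries. Those of fibroblasts summed to 5.21 to 17.7 CPM, of trophectoderm to 27.7 to 36.5 CPM, of primitive endoderm to 97.6 to 167 CPM and of primed epiblast to 59.5 to 89.8 CPM. Two-cell-like markers summed to 4.48 and 4.62 CPM in the Supt7l-/- clones, against 0.271 to 1.99 CPM in the other lines. The targeted genes were counted in every library. The Supt7l gene had 8.79 and 13.9 CPM in the Supt7l-/- clones, against 14.3 CPM in Tir1/BirA WT and 13.8 CPM in WT of the same project, so its summed counts do not separate the lines. Tada3 had 12.3 and 10.8 CPM in AID-Tada3, against 24.2 CPM in Tir1/BirA WT and 31.4 CPM in WT. Yeats2 had 107 and 184 CPM in AID-Yeats2, against 255 CPM in Tir1/BirA WT and 240 CPM in WT, and Zzz3 285 and 301 CPM in AID-Zzz3, against 450 CPM in Tir1/BirA WT and 432 CPM in WT. Genes of the Y chromosome were far lower in Supt7l-/- clones, with a median log2 fold change of -6.33 over 8 genes against WT. The distal part of chromosome 14 also stood apart in some libraries, as described with Hs6st3 and Mbnl2.

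All 10 genes had less new RNA in Tir1/BirA WT than in WT in each of the 3 projects. Rin3 had 11.5, 10.6 and 12.2 CPM in Tir1/BirA WT of projects 1, 2 and 3, against 39.3, 33.6 and 39.6 CPM in WT. Pramel6 had 0.694, 0.854 and 1.50 CPM in Tir1/BirA WT, against 6.37, 4.60 and 3.77 CPM in WT. Pramel7 had 1.53, 1.71 and 1.22 CPM in Tir1/BirA WT, against 6.88, 6.33 and 4.80 CPM in WT. The lines did not overlap for any of these, and the Pramel genes rest on 8 to 22 counts per library in Tir1/BirA WT. Igsf21, another gene of low level, had 1.39, 2.67 and 3.84 CPM in Tir1/BirA WT, against 4.92, 9.30 and 12.9 CPM in WT. In both lines Igsf21 was lowest in project 1 and highest in project 3, so its lines are compared within a project.

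Among the genes acting on matrix, Htra1 had 41.4, 33.6 and 32.9 CPM in Tir1/BirA WT of projects 1 to 3, against 79.5, 64.6 and 66.6 CPM in WT. Cemip had 29.6, 46.7 and 50.7 CPM in Tir1/BirA WT, against 72.9, 91.1 and 101 CPM in WT. Hs6st3 had 14.6, 29.0 and 22.2 CPM in Tir1/BirA WT, against 31.7, 64.3 and 60.5 CPM in WT. Htra1 varied little between projects, whereas Hs6st3 in WT of project 1 was close to Tir1/BirA WT of project 2. The other genes encode membrane proteins and a splicing regulator. Tmem117 had 75.8, 98.5 and 93.5 CPM in Tir1/BirA WT, against 152, 206 and 182 CPM in WT. Tmem108 had 44.3, 41.2 and 44.8 CPM in Tir1/BirA WT, against 70.3, 82.4 and 96.5 CPM in WT. Mbnl2 had 154, 147 and 168 CPM in Tir1/BirA WT, against 246, 269 and 272 CPM in WT. No library of one line reached the range of the other for these 3 genes.

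Per kilobase of median transcript length, the levels in Tir1/BirA WT ran from 1.33 (Igsf21), 1.55 (Pramel6) and 2.24 (Pramel7) to 33.2 (Tmem117) and 50.3 CPM per kb (Mbnl2). In WT they ran from 4.58 (Igsf21), 7.51 (Pramel6) and 9.07 (Pramel7) to 66.9 (Tmem117) and 84.5 CPM per kb (Mbnl2). Rin3 stood at 12.2 CPM per kb in Tir1/BirA WT and 40.0 CPM per kb in WT, Htra1 at 22.9 and 44.7, and Cemip at 9.88 and 20.6, in the same order of lines. Within each line the libraries of Pramel6 and Pramel7 overlapped on this scale, while those of Tmem117 and Mbnl2 did not.

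**Figure D1:**
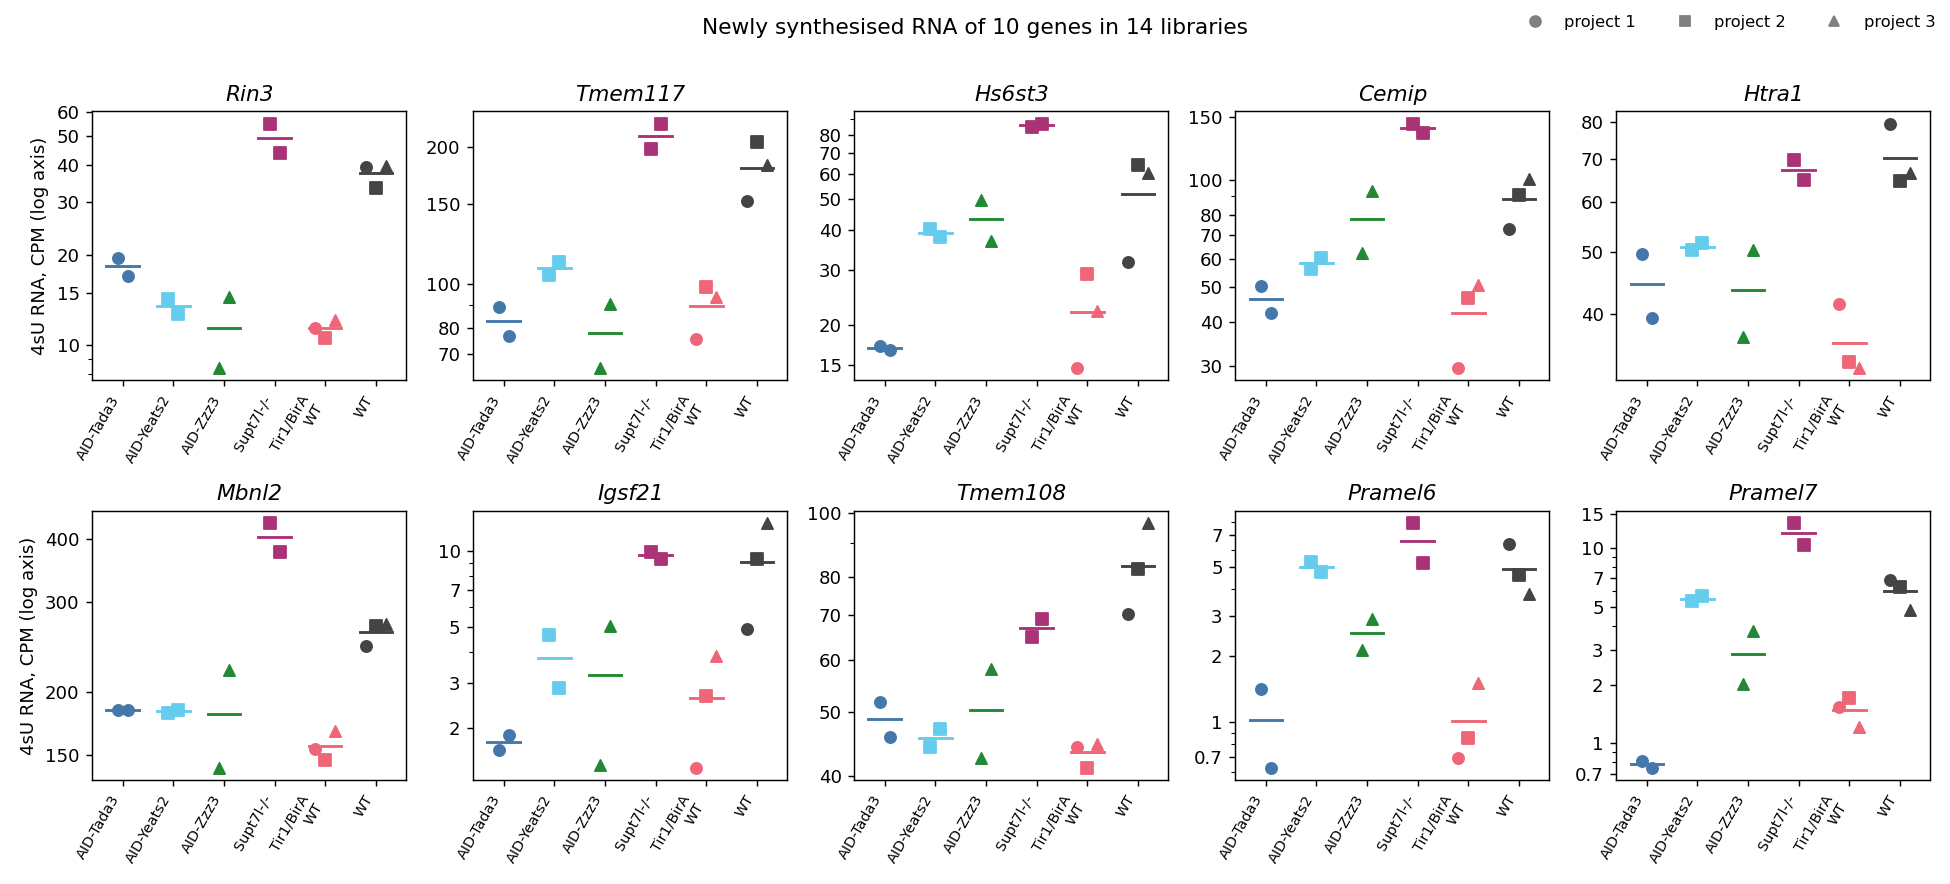
Level of each gene in CPM (log axis) in the 14 4sU libraries, by line, with 1 point per library, its shape giving the project, and a line at the mean. In all 10 panels Tir1/BirA WT sits below WT of the same project, and the Supt7l-/- clones sit above Tir1/BirA WT; Pramel6 and Pramel7 are as high in AID-Yeats2 as in WT, and lowest in AID-Tada3 or Tir1/BirA WT.

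In a fit of the 6 WT libraries with project as a block, the log2 fold changes of Tir1/BirA WT over WT were -2.31 ± 0.35 (SE, n = 3 per line) for Pramel6, -2.03 ± 0.23 for Pramel7, -1.79 ± 0.19 for Igsf21 and -1.73 ± 0.11 for Rin3. Those of Hs6st3, Cemip and Tmem117 were -1.25 ± 0.10, -1.09 ± 0.09 and -1.02 ± 0.07. Those of Htra1, Tmem108 and Mbnl2 were -0.98 ± 0.08, -0.93 ± 0.10 and -0.76 ± 0.07. As background, 115 of 14647 genes (0.785%) had an adjusted p under 0.05 and lower RNA in Tir1/BirA WT in edgeR, and 65 (0.444%) higher. The 10 genes were picked for low values in this contrast and are all among the 115, so their count of 10 follows from the choice. Without project 2, 3 of 14720 genes (0.0204%) were called lower, 2 of them among the 10, whose median log2 fold change was -1.22 there against -1.17 with every project. Within projects the log2 difference ranged most for Pramel6, which had -2.92, -2.22 and -1.24 in projects 1, 2 and 3. For Igsf21 the differences were -1.71, -1.74 and -1.71.

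Total RNA had 1 library per line and so no test. It comes from the lines and the project that served in the choice, and 4sU RNA was purified from total RNA, so it is not independent of the choice; the labels do not say whether the cultures were the same. Counts in these libraries give the ratio of Tir1/BirA WT to WT with a 95% interval that covers counting error only. All 10 genes were lower in Tir1/BirA WT, 8 of them at least 2-fold, as were 4.42% of 12884 genes. The median log2 difference of the 10 genes was -1.50, against 0.03 for all genes. Pramel7 had 17 counts in Tir1/BirA WT against 93 in WT, a ratio of 0.147 (0.0819 to 0.247) after scaling. Pramel6 had 26 counts in Tir1/BirA WT against 139 in WT, a ratio of 0.150 (0.0947 to 0.229). Rin3 had 16 against 62 counts and Igsf21 5 against 19, with ratios of 0.207 (0.111 to 0.363) and 0.211 (0.0616 to 0.584). These 4 had the lowest ratios, and they also had the most negative fold changes in new RNA.

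Hs6st3 and Tmem117 had ratios of 0.345 (0.241 to 0.486) and 0.346 (0.271 to 0.439). Cemip had 0.373 (0.287 to 0.483) and Htra1, with 251 counts in Tir1/BirA WT and 498 in WT, 0.404 (0.346 to 0.471). The exceptions to a 2-fold difference were Tmem108, at 0.569 (0.432 to 0.748), and Mbnl2, at 0.625 (0.548 to 0.713). Between the RNA types in project 1, the log2 difference between lines was further from 0 in total RNA for 8 genes, by up to 0.57 (Pramel7). It was nearer to 0 in total RNA for Pramel6, by 0.28, and nearly equal for Mbnl2. Of the other 105 genes called lower in new RNA, 99 were tested in total RNA. All 99 were lower in Tir1/BirA WT there, and 38 were at least 2-fold lower (median -0.85). Of 11980 genes outside chromosome 14, members left out, 47.3% were lower in total RNA. The 105 genes were called in new RNA of the same lines, so their direction in total RNA is not independent of that call.

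**Figure D2:**
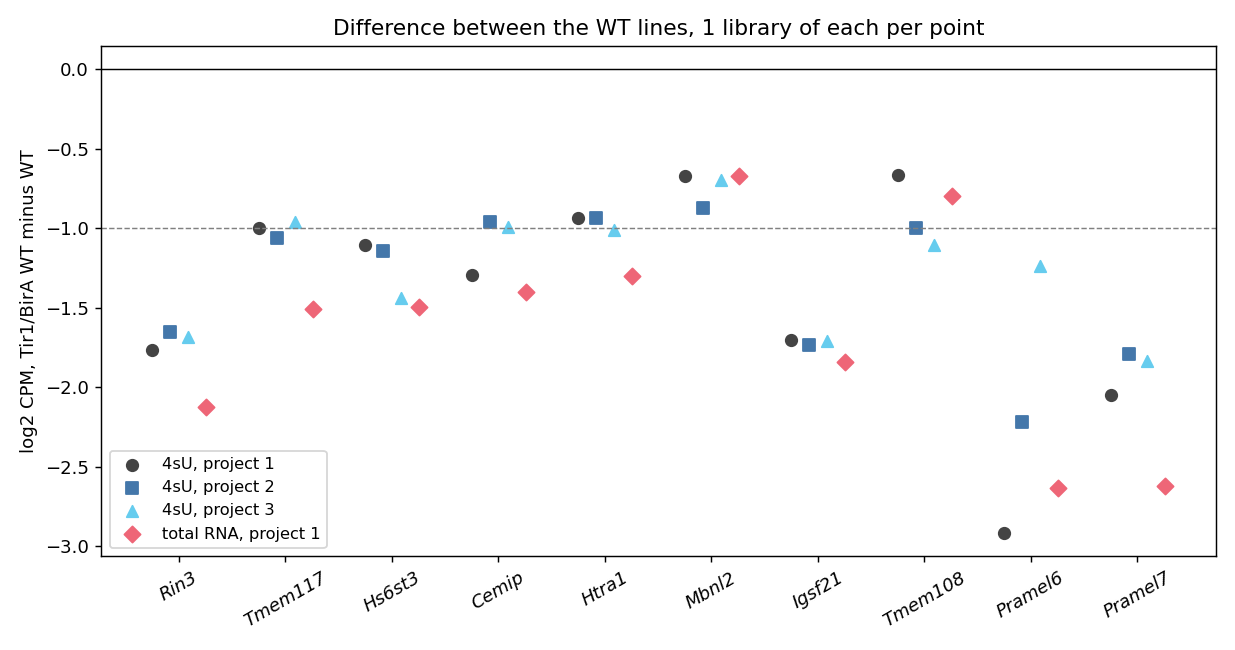
Log2 difference in CPM between Tir1/BirA WT and WT for each gene, with 1 point for each pair of libraries: 4sU RNA of the 3 projects and total RNA of project 1. Every point lies below 0, the dashed line marks a 2-fold difference, and total RNA passes it for all genes but Mbnl2 and Tmem108.

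The genes lie on chromosomes 2, 4, 7, 9, 12, 14 and 15 (mm10, positions as deposited). Pramel7 (ENSMUSG00000025839, chromosome 2, 87489087 to 87497093) and Pramel6 (ENSMUSG00000025838, 87506565 to 87510872) are adjacent, 9.47 kb apart. Hs6st3 (ENSMUSG00000053465, chromosome 14, 119138341 to 119869815) and Mbnl2 (ENSMUSG00000022139, 120275669 to 120431697) are adjacent among the genes tested, 406 kb apart. Cemip (ENSMUSG00000052353, 83932857 to 84086502) and Htra1 (ENSMUSG00000006205, 130936111 to 130985660) share chromosome 7 but lie far apart. Rin3 (ENSMUSG00000044456) is at 102283048 to 102390855 of chromosome 12, and Tmem117 (ENSMUSG00000063296) at 94629232 to 95096098 of chromosome 15. Igsf21 (ENSMUSG00000040972) is at 140026846 to 140246784 of chromosome 4, and Tmem108 (ENSMUSG00000042757) at 103482947 to 103761837 of chromosome 9. Of the 10 genes, 7 span more than 100 kb, as did 15.7% of the genes tested; the median span was 155 kb for the 10 genes, 118 kb for the other genes called lower, and 26.1 kb for all genes tested.

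The nearest tested genes on either side, 16 in all besides members, were not called in the same contrast. Their log2 fold changes of Tir1/BirA WT over WT ran from -0.79 to 0.14, with a median of -0.10. Beside Cemip, Mesd and Abhd17c had 0.09 and 0.07, and beside Rin3, Cpsf2 and Lgmn had 0.09 and -0.33. Beside the Pramel pair, Tnks1bp1 and the olfactory receptor gene Olfr153 had -0.28 and 0.09. Beside Igsf21, Klhdc7a and Arhgef10l had -0.10 and 0.14, and beside Tmem117, Twf1 and Nell2 had 0.04 and -0.13. Fgfr2 and Pstk, beside Htra1, had -0.03 and -0.10. Outside chromosome 14, low values of more than 0.5 next to a member were seen only for Gm32743, an antisense gene within Tmem108, at -0.70 ± 0.35, while 5830418P13Rik on the other side had -0.35 ± 0.16. Nell2 overlaps the end of Tmem117, Fgfr2 spans Htra1 and Gm32743 lies in Tmem108, each on the opposite strand. The strand setting of the counting is not given in the sources used here, so reads of such partners may not be told apart. Hs6st3 and Tmem108 also overlap annotated genes on their own strand, which no strand setting would separate.

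On chromosome 14 the neighbours of the members had negative values as well. Uggt2, beside Hs6st3, had -0.79 ± 0.21, and Rap2a, beside Mbnl2, had -0.43 ± 0.13, neither called. Over the 195 tested genes from 60 Mb to the end of the chromosome, members left out, 165 had negative fold changes, with a median of -0.31 and 8 called lower, against a median of 0.01 for the 326 tested genes below 60 Mb. That boundary was chosen after the values were seen. Below it, the 15 tested genes of the first 10 Mb had medians of -0.37, -0.35 and -0.31 in Tir1/BirA WT minus WT of projects 1, 2 and 3. In total RNA 10 of these genes had a median of -0.36. The median difference in the window from 60 Mb on between Tir1/BirA WT and WT was 0.04, -0.45 and -0.46 in projects 1, 2 and 3, and 0.03 in total RNA of project 1. Within it, total RNA had medians of -0.10 and -0.27 in the 10 Mb from 110 and from 120 Mb, where Hs6st3 and Mbnl2 start. From 90 and from 100 Mb they were 0.28 and 0.22. Against the mean of the 6 WT libraries, the median of the whole window was -0.13, -0.14 and -0.12 in the Tir1/BirA WT libraries and -0.17, 0.30 and 0.34 in the WT libraries. The WT libraries of projects 2 and 3 thus stood apart from that of project 1 over this window. Hs6st3 and Mbnl2 were lower in Tir1/BirA WT in project 1 by log2 differences of -1.11 and -0.67. They had -1.14 and -0.88 in project 2 and -1.44 and -0.70 in project 3. In new RNA of project 1, the 10 Mb from 110 and from 120 Mb had medians of -0.07 and -0.02. There 8 of 11 and 11 of 21 genes were negative, members left out. The share of the window in the values of Hs6st3 and Mbnl2 was not tested.

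Set against WT of the same project, the window had medians of 0.02 and 0.06 in the AID-Tada3 clones, -0.46 and -0.42 in the AID-Yeats2 clones, -0.50 and -0.45 in the AID-Zzz3 clones, and 0.06 and 0.05 in the Supt7l-/- clones. Supt7l-/- clones thus stood with the WT library of project 2 here. In these 11 contrasts, the medians of the 20 other stretches (each other autosome, chromosome X, and chromosome 14 below 60 Mb) stayed between -0.07 and 0.10. That range leaves out the mitochondrial genome and chromosome Y. The 19 mitochondrial genes had medians of 0.69, 0.57 and 0.16 in Tir1/BirA WT of projects 1, 2 and 3, 0.40 to 0.71 in the AID clones, and 0.16 and -0.01 in the Supt7l-/- clones. The 9 genes of chromosome Y had medians of -0.59 and -1.02 in the AID-Tada3 clones, -3.90 in each Supt7l-/- clone (log2 CPM, prior count 2) and -0.07 to 0.39 in the other contrasts. Their part in the results was not tested.

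**Figure D3:**
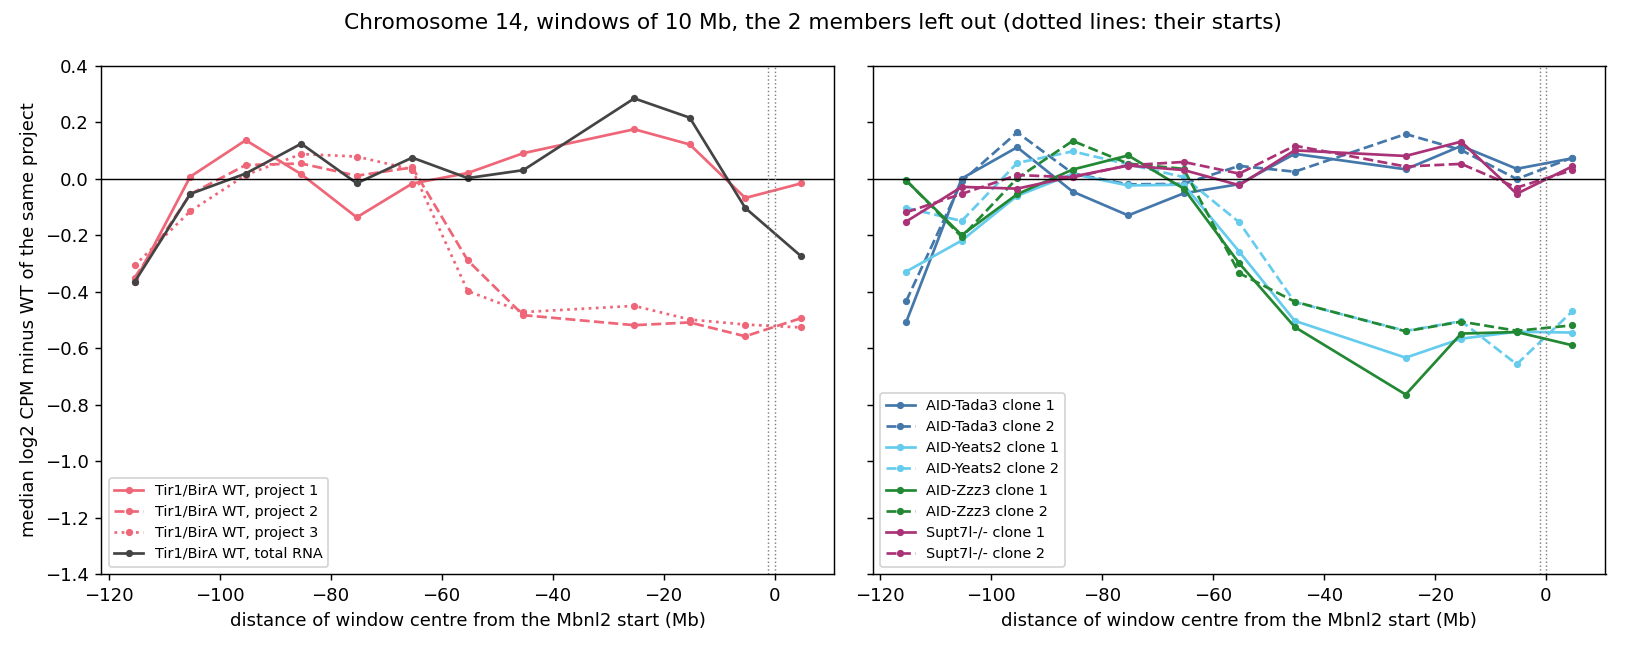
Median log2 CPM minus WT of the same project over windows of 10 Mb of chromosome 14 (windows of fewer than 5 genes not drawn), against distance from the Mbnl2 start in Mb, for Tir1/BirA WT at left and the mutant clones at right. Tir1/BirA WT of projects 2 and 3 and the AID-Yeats2 and AID-Zzz3 clones run below 0 over the distal windows, while project 1, AID-Tada3 and Supt7l-/- stay near 0.

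Each mutant clone was then placed between the WT lines of its project, by whether its log2 CPM was nearer to Tir1/BirA WT or to WT. Over the 6 clones of the AID lines, 46 of 60 gene and clone pairs were nearer to Tir1/BirA WT, and over the Supt7l-/- clones 0 of 20 were. The AID-Tada3 clones were nearer to Tir1/BirA WT in 9 and 10 of 10 genes, the AID-Yeats2 clones in 7 and 7, and the AID-Zzz3 clones in 9 and 4. The Supt7l-/- clones were above both WT lines in 8 and 9 of 10 genes. These counts share the WT libraries that chose the genes and are a description. With spike-in scaling 53 of 60 and 2 of 20 pairs were nearer to Tir1/BirA WT. For the other 105 genes called lower, 69.5% and 80% were nearer to Tir1/BirA WT in the AID-Tada3 clones, 38.1% and 43.8% in AID-Yeats2, 57.1% and 43.8% in AID-Zzz3, and 11.4% and 10.5% in Supt7l-/-. For the 65 genes called higher the shares were 78.5% and 81.5%, 56.9% and 67.7%, 67.7% and 66.2%, and 3.08% and 1.54%, in the same order of lines. Over all 14637 other genes they were 63.5% and 62.4%, 46.3% and 47.0%, 50.7% and 49.7%, and 36.7% and 37.1%.

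Rin3, Tmem117, Igsf21 and Tmem108 were nearer to Tir1/BirA WT in all 6 AID clones. Rin3 had 19.6 and 17.1 CPM in AID-Tada3, 14.2 and 12.7 CPM in AID-Yeats2, 8.38 and 14.5 CPM in AID-Zzz3, and 54.9 and 43.7 CPM in Supt7l-/-. Tmem117 had 89.0 and 76.6 CPM in AID-Tada3, 105 and 112 CPM in AID-Yeats2, 65.2 and 90.3 CPM in AID-Zzz3, and 198 and 225 CPM in Supt7l-/-. No AID clone came within the WT range of these genes, and both Supt7l-/- clones were above every AID clone. Igsf21 had 1.62 and 1.88 CPM in AID-Tada3, 4.65 and 2.89 CPM in AID-Yeats2, 1.42 and 5.06 CPM in AID-Zzz3, and 9.92 and 9.37 CPM in Supt7l-/-. Tmem108 had 51.8 and 45.8 CPM in AID-Tada3, 44.2 and 47.2 CPM in AID-Yeats2, 42.6 and 58.1 CPM in AID-Zzz3, and 64.8 and 69.0 CPM in Supt7l-/-. Tmem108 was the gene for which both Supt7l-/- clones lay between the WT lines, at 0.34 and 0.25 below WT on the log2 scale.

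The matrix genes and Mbnl2 were less even. Cemip had 50.4 and 42.5 CPM in AID-Tada3, 56.4 and 60.5 CPM in AID-Yeats2, 62.6 and 93.3 CPM in AID-Zzz3, and 144 and 136 CPM in Supt7l-/-. Hs6st3 had 17.2 and 16.8 CPM in AID-Tada3, 40.3 and 37.9 CPM in AID-Yeats2, 49.6 and 37.0 CPM in AID-Zzz3, and 84.9 and 86.7 CPM in Supt7l-/-. Cemip and Hs6st3 were each nearer to Tir1/BirA WT in 4 of 6 AID clones, and the second AID-Zzz3 clone was near WT for Cemip. Htra1 had 49.7 and 39.5 CPM in AID-Tada3, 50.4 and 51.7 CPM in AID-Yeats2, 36.8 and 50.4 CPM in AID-Zzz3, and 69.7 and 65.0 CPM in Supt7l-/-. Mbnl2 had 184 and 184 CPM in AID-Tada3, 182 and 184 CPM in AID-Yeats2, 142 and 220 CPM in AID-Zzz3, and 429 and 376 CPM in Supt7l-/-. Mbnl2 in Supt7l-/- exceeded every other 4sU library.

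The Pramel genes split the AID lines. Pramel6 had 1.42 and 0.625 CPM in AID-Tada3, 5.25 and 4.78 CPM in AID-Yeats2, 2.13 and 2.91 CPM in AID-Zzz3, and 7.89 and 5.21 CPM in Supt7l-/-. Pramel7 had 0.812 and 0.750 CPM in AID-Tada3, 5.35 and 5.67 CPM in AID-Yeats2, 2.01 and 3.76 CPM in AID-Zzz3, and 13.4 and 10.4 CPM in Supt7l-/-. AID-Tada3 stood nearer to Tir1/BirA WT of its project, AID-Yeats2 nearer to WT, and the AID-Zzz3 clones in between, one on each side of the midpoint. In log2 CPM, Pramel7 in the AID-Tada3 clones was 0.79 and 0.88 below Tir1/BirA WT, on 12 counts in each clone. Rin3 and Tmem117, in contrast, were below the WT range in all 3 AID lines.

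**Figure D4:**
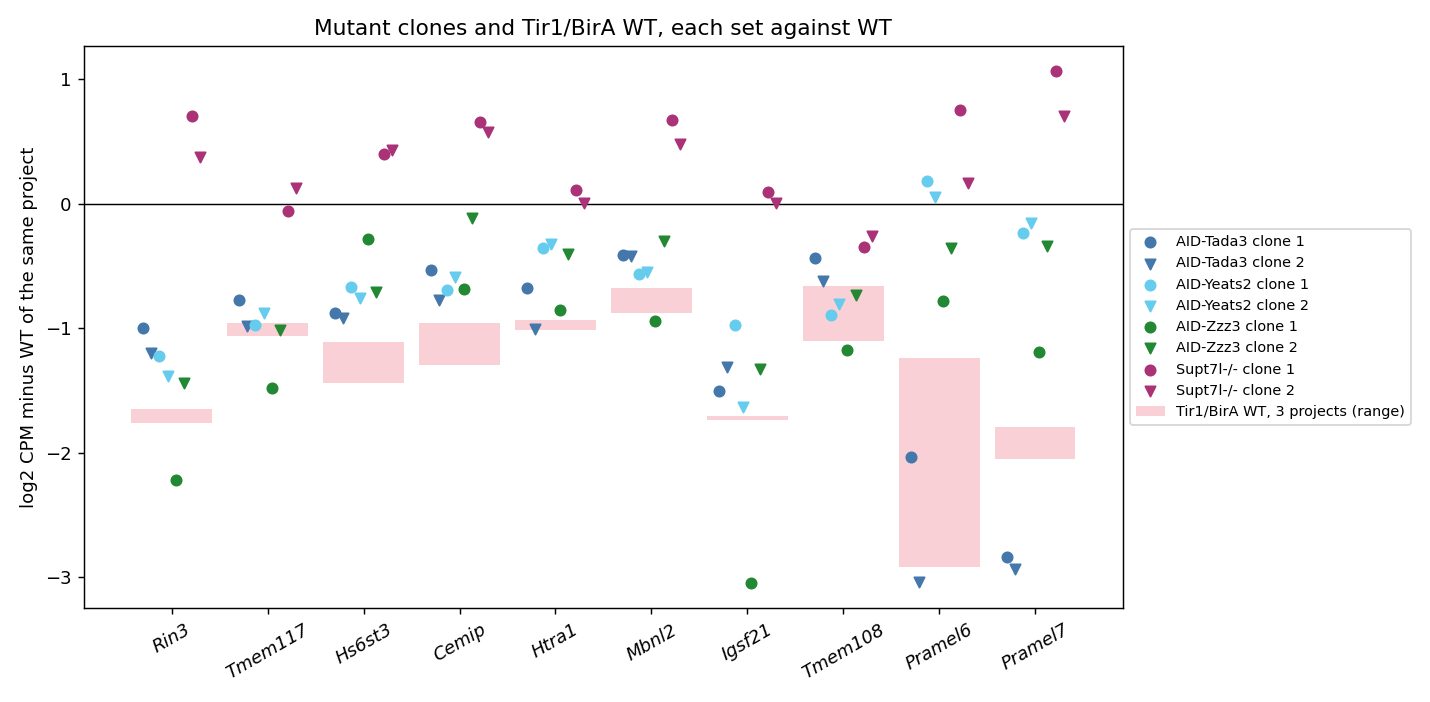
Log2 CPM of each mutant clone minus WT of the same project (points, by line and clone), with the range of Tir1/BirA WT minus WT over the 3 projects as a shaded band. Of 60 AID points 46 were nearer to Tir1/BirA WT of their project, the AID-Yeats2 points of Pramel6 and Pramel7 sit near 0, and the Supt7l-/- points sit near or above 0 except for Tmem108.

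Set against the mean of both WT lines of its project, no mutant passed the test for any of the 10 genes in edgeR. The WT lines serve as replicates of each other in these fits, so the difference between them enters the error. In AID-Tada3 the median log2 fold change of the 10 genes was -0.47, 0 were called, and 0.0331% and 0% of 15099 genes were called lower and higher. In AID-Yeats2 it was -0.22, with 1.55% and 2.28% of all genes called lower and higher. In AID-Zzz3 it was -0.22, with 0.303% and 0.681% called. In Supt7l-/- it was 0.92, with all 10 values positive and 1.22% and 0.666% of genes called lower and higher. At an unadjusted p under 0.05 there was 1 of the 10 genes in AID-Tada3 and 1 in Supt7l-/-, in both cases Pramel7, at -2.45 ± 0.86 and 1.54 ± 0.54 (adjusted p = 0.588 and 0.278, edgeR). Both other AID lines had 0. DESeq2 in place of edgeR called 0 as well, but gave no adjusted p for Igsf21, Pramel6 and Pramel7 in AID-Tada3 and AID-Yeats2, where 7 of the 10 genes were evaluated. Scaling by the spike-in RNA, which moved the median of all genes by -0.50 in AID-Yeats2, called 7 of the 10 genes lower in that line, where 43.5% of all genes were called lower. In 1 model over all 4sU libraries 8 were called higher in Supt7l-/-, as were 1.98% of all genes. The authors' deposited table likewise lists none of the 10 genes at an adjusted p under 0.05 for any mutant. The smallest in the authors' deposited table was 0.0791 for Tmem108 in AID-Yeats2, and some genes of few counts have no adjusted p. Some of its log2 fold changes differ in sign from those here, while others share it. Rin3 in AID-Tada3 had 0.22 there and -0.49 here, and Tmem108 in Supt7l-/- had -0.16 there and 0.12 here.

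The calls depended on which WT line served, and since the WT lines chose the genes, these counts are a description. Against WT alone, without the Tir1/BirA library, 10 genes were lower in AID-Tada3 (6.31% of all genes), 8 lower in AID-Yeats2 (6.8%) and 3 lower in AID-Zzz3 (1.13%). In Supt7l-/- 5 were higher (1.91% of all genes) and 1 lower (3.06%). Against Tir1/BirA WT alone, without the WT library, 2 were higher in AID-Tada3 (0.476%), 6 higher in AID-Yeats2 (8.4%), 0 higher or lower in AID-Zzz3 (0.913% higher) and 10 higher in Supt7l-/- (8.46%). In these fits the lone WT library is assumed to vary like the clones.

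AID-Yeats2 and Supt7l-/- were sequenced in the same project and can be compared with no WT library. This contrast thus shares no library with the WT values that picked the genes. The genes were chosen with earlier results of these data known, however, so the contrast is not independent of the choice. Of the 10 genes, 9 were lower in AID-Yeats2 and none was higher, where 12.8% and 15.0% of 14222 genes were called lower and higher. Their median log2 fold change was -1.09, against -0.002 for all genes. Rin3, the Rab5 activator, was lower by the most, at -1.84 ± 0.12 (SE, n = 2 clones per line, adjusted p = 1.5e-13, edgeR). Igsf21 and Cemip had -1.33 ± 0.23 and -1.23 ± 0.07 (adjusted p = 2.51e-05 and 1.73e-15, edgeR). Mbnl2 and Hs6st3 each had -1.11, with SE of 0.06 and 0.08 (adjusted p = 2.54e-16 and 1.18e-12, edgeR). In the chromosome 14 window that holds both, 105 of 190 other genes were called lower in this contrast, with a median of -0.48, and its part in these values was not tested.

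Pramel7 had -1.08 ± 0.20 and Tmem117 -0.94 ± 0.06 (adjusted p = 5.7e-05 and 1.8e-13, edgeR). Tmem108 and Htra1 differed less, at -0.52 ± 0.08 and -0.37 ± 0.08 (adjusted p = 1.03e-05 and 7.45e-04, edgeR). Pramel6 had -0.35 ± 0.24 and was not called (adjusted p = 0.291, edgeR). In the 9 called genes both AID-Yeats2 clones were below both Supt7l-/- clones. With spike-in scaling, which moved the median of all genes by -0.14, Htra1 and Tmem108 had -0.51 and -0.67 and no longer passed (adjusted p = 0.482 and 0.253, edgeR).

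The other AID lines were sequenced apart from Supt7l-/-, so they were compared with it in 1 model over all 14 libraries of new RNA, in which the WT lines of each project link the projects. This comparison was added after the data were seen, and it uses the WT libraries that chose the genes. Of the 10 genes, 8 were lower in AID-Tada3 than in Supt7l-/- (0.927% of 15426 genes called lower), with a median log2 fold change of -1.25, against -0.01 for all genes. Pramel7 had -3.97 ± 0.41 and Pramel6 -3.00 ± 0.55 (adjusted p = 3.79e-05 and 0.00815, edgeR). Igsf21 and Tmem108 had -1.55 ± 0.51 and -0.41 ± 0.18 and were not called (adjusted p = 0.148 and 0.303, edgeR). In AID-Zzz3, 7 were lower (2.04% of all genes), with a median of -1.28 against -0.01. Rin3 had -2.30 ± 0.26 and Igsf21 -1.96 ± 0.48 (adjusted p = 1.92e-04 and 0.0286, edgeR). Htra1, Tmem108 and Pramel6, at -0.63 ± 0.18, -0.58 ± 0.18 and -1.38 ± 0.55, were not called (adjusted p = 0.0567, 0.0840 and 0.178, edgeR). The counts rest on single libraries. That of AID-Tada3 was 3 without WT replicate 2, 4 without Tir1/BirA WT replicate 2, AID-Tada3 replicate 2 or Supt7l-/- replicate 1, and 5 without WT replicate 1, where 0.21% to 1.26% of all genes were called lower. That of AID-Zzz3 was 2 without Supt7l-/- replicate 1 or WT replicate 3, 3 without either WT library of project 2, and 4 without Supt7l-/- replicate 2 or Tir1/BirA WT replicate 3, where the share was 0.571% to 1.96%. The distal chromosome 14 window had medians of -0.28 in AID-Tada3 and -0.49 in AID-Zzz3 against Supt7l-/-, beside the values of Hs6st3 (-1.35 and -0.79) and Mbnl2 (-1.12 and -1.25).

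**Figure D5:**
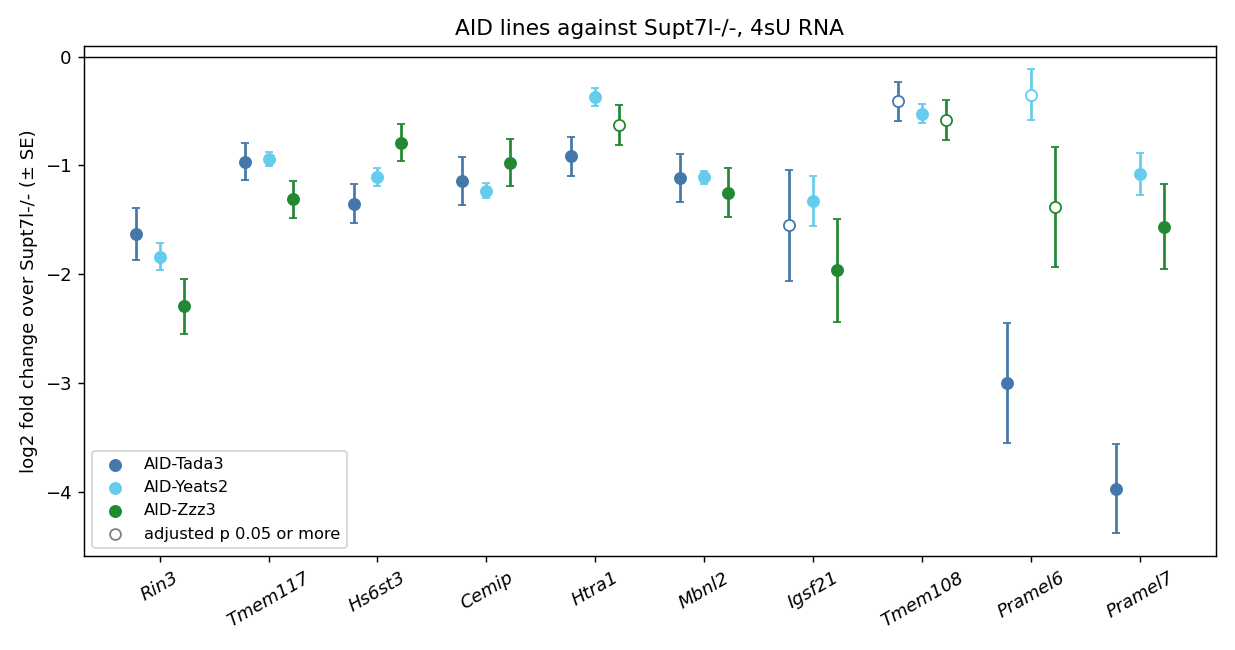
Log2 fold change of each AID line over Supt7l-/- with its SE for the 10 genes, in edgeR fits (AID-Yeats2 within project 2, the others in the joint fit), filled where the adjusted p was under 0.05. All 30 points are below 0, and the AID-Tada3 points of Pramel6 and Pramel7 are the lowest.

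The genes differed in how new RNA compared with total RNA, a ratio that reflects both synthesis and stability. Ribosomal RNA was depleted only from the total RNA, per the labels. Both RNA types of project 1 come from the same pair of lines, so the fit with WT line as a replicate block stands beside the one without it. Without the block, 3 of the 10 genes had more 4sU RNA than total RNA and 0 had less, where 30.4% of 14494 genes were called higher and 33.0% lower. These were Tmem117 at a log2 ratio of 1.96 ± 0.61, Tmem108 at 1.57 ± 0.32 and Mbnl2 at 1.32 ± 0.29 (SE, n = 2 per RNA type; adjusted p = 0.0437, 0.00395 and 0.00609, edgeR). With the block 6 were higher and 2 lower, where 36.5% and 37.2% of genes were called. Rin3, Cemip and Hs6st3 joined those higher, at 1.90 ± 0.23, 1.08 ± 0.16 and 0.73 ± 0.19 (adjusted p = 1.42e-16, 1.11e-10 and 3.03e-04, edgeR). Pramel6 and Pramel7 were lower, at -2.14 ± 0.28 and -1.19 ± 0.29 (adjusted p = 7.27e-14 and 8.64e-05, edgeR). Pramel6 had 0.694 and 6.37 CPM of 4sU RNA in Tir1/BirA WT and WT, against 4.16 and 27.8 CPM of total RNA. Without the block, 6 were higher and 1 lower when Tir1/BirA WT 4sU RNA was left out (26.7% and 28.5% of all genes), and 1 was higher when Tir1/BirA WT total RNA was left out (24.4%). With the block, Htra1 and Igsf21 were not called, at -0.07 ± 0.14 and 0.57 ± 0.42 (adjusted p = 0.654 and 0.216, edgeR).

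Across the 14 4sU libraries, with log2 CPM centred within each project, each gene's profile had a Pearson r of 0.803 (Pramel6) to 0.965 (Htra1) with the mean of the other 9. The points share their WT libraries, on which the genes were chosen, so this is a description. Pramel6 and Pramel7 had r = 0.903 with each other, and r = 0.646 to 0.755 with Rin3, Tmem117, Igsf21 and Tmem108. Of 13945 other genes with a mean of at least 1 CPM, the 5 most like the mean profile were Hdgfl3 (r = 0.964), the fatty acid elongase gene Elovl5 (0.964), the vesicle fusion ATPase gene Nsf (0.955), the glypican gene Gpc4 (0.951) and Dock9 (0.944). Hdgfl3 had a log2 fold change of -1.24 in Tir1/BirA WT over WT, and the others -0.40 to -0.59. Dock9 lies in the distal window of chromosome 14, at 121542046 to 121797837.

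No gene of the lists of genes that work with the members was called between the WT lines, where 0.785% and 0.444% of all genes were called lower and higher, so a count of 0 in lists of this size is near the background. Of 17 tested genes of heparan sulphate synthesis and editing, 0 were called higher or lower in Tir1/BirA WT, with a median of -0.05 against -0.005 for all genes. Of 7 genes of hyaluronan metabolism and 12 of Rab5 activation, 0 were called, with medians of 0.13 and -0.03. Of 6 other muscleblind and CELF splicing genes and 4 other genes of the Pramel family, 0 were called, with medians of -0.05 and -0.11. The 9 genes of DNA methylation, Uhrf1 among them, had 0 called and a median of -0.05. Their fold changes ranged from -0.40 to 0.13.

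In AID-Yeats2 against Supt7l-/-, where 15.0% and 12.8% of all genes were called higher and lower, the lists held calls in both directions, and nothing particular to a list is read from them. Of 17 heparan sulphate genes 4 were higher and 3 lower, with a median of 0.10. Hs3st1, a 3-O-sulphotransferase gene, had 1.17, and Sulf1, which encodes a 6-O-endosulphatase, had -1.15 (adjusted p = 2.21e-04 and 6.07e-15, edgeR). Of 12 Rab5 genes 2 were lower, a share near that of all genes: Rab31 at -0.41 and Rin2 at -0.27 (adjusted p = 6.06e-04 and 0.0491, edgeR). Of 6 splicing genes Celf2 and Mbnl3 were lower, at -0.83 and -0.61, and Celf5 was higher, at 0.79 (adjusted p = 1.35e-10, 0.00149 and 0.00393, edgeR). Of 7 hyaluronan genes 1 was higher, Tmem2, at 0.30 (adjusted p = 0.00305, edgeR). Of 9 DNA methylation genes 4 were higher and 2 lower, with Uhrf1 at 0.57 and Dnmt1 at -0.25 (adjusted p = 7.65e-08 and 0.00418, edgeR). No other tested gene of the Pramel family was called. Markers of embryonic stem cells moved in this contrast too, with 7 of 9 higher in AID-Yeats2 and a median of 0.30. Markers of other cell types were also called. Of primed epiblast 2 of 2 were higher, and of primitive endoderm 2 of 7 were higher and 1 lower. Of fibroblasts 1 of 2 was higher, of trophectoderm 1 of 4 was lower, and the 1 two-cell-like marker tested was not called. The part of these markers in the results was not tested.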

How the data were processed

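Per the labels' protocols, 4sU-labelled RNA was purified from fragmented total RNA, and libraries were stranded. Ribosomal RNA was depleted from total RNA only. The submitters' processing notes name STAR 2.5.3a, the counter HTSeq 0.6.1p1 and mm10. Raw counts were deposited by the authors for each mouse gene and each spike-in gene (Drosophila in project 1, S. pombe in projects 2 and 3). The median transcript length and the authors' own log2 fold changes and adjusted p-values were deposited too. Of the authors' test values, only the smallest adjusted p of a member and the log2 fold changes of Rin3 and Tmem108 given above are printed here. All other values were computed from the counts with R 4.3.3, edgeR 4.0.16, DESeq2 1.42.0, Python 3.11.15 and pandas 2.3.3. Libraries were scaled by TMM, genes filtered by filterByExpr (minimum count 10) and tested by edgeR's quasi-likelihood test with Benjamini-Hochberg adjustment over all genes at 0.05, after a test on simulated data. The SE of an edgeR fold change is its absolute value divided by the square root of the test's F statistic. It thus rests on a dispersion estimated for each gene with information shared between genes. Log2 CPM used a prior count of 2. All 10 members had the same coordinates in GENCODE M21, and all passed the filter in every comparison. The members and gene lists were chosen with earlier results of these data known. Besides members, the named genes are the nearest tested genes on each side, the 5 genes most like the mean profile, and members of the lists that passed a test. Of the list members that passed, those shown were chosen after their values were seen. Alternatives were DESeq2 size factors, DESeq2, no filter, spike-in scaling, blocks, a joint fit and leaving out each library. Reads without molecular identifiers are not independent molecules, so counting intervals cover counting error only.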

Additional observations from a re-analysis of the deposited data

Results flagged for a closer look

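The AID-Yeats2 and Supt7l-/- clones of project 2 differed in 9 of the 10 genes, by edgeR's test between these lines at an adjusted p under 0.05. In that test 12.8% of 14222 genes were called lower in AID-Yeats2 and 15.0% higher. The part of the mutations in the difference between the lines was not tested. The log2 differences were -1.84 for Rin3, -0.94 for Tmem117, -1.11 for Hs6st3, -1.23 for Cemip, -0.37 for Htra1, -1.11 for Mbnl2, -1.33 for Igsf21, -0.52 for Tmem108 and -1.08 for Pramel7.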

How the results depend on the processing

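The counts of called genes among the 10 depended on the WT libraries. In Tir1/BirA WT against WT, the contrast that chose the genes, the count was 10 by that choice. With no replicate block for project it was 6, all lower, where 10 of 14181 genes were called lower. Leaving out a project gave 2 to 10, the 2 without project 2. Of all genes, 0.0204% were called lower without project 2, against 0.785% with every project. DESeq2 gave 7 in the contrast that chose the genes, with no adjusted p for the other 3. These counts support nothing about the genes. Against both WT lines, leaving out 1 library gave 0 to 10 in AID-Tada3, 0 to 8 in AID-Yeats2, 0 to 10 in Supt7l-/- and 0 to 3 in AID-Zzz3. Spike-in scaling gave 2 in AID-Tada3, 7 in AID-Yeats2 (43.5% of all genes called lower) and 1 in Supt7l-/-. With no filter AID-Tada3 had 1 and Supt7l-/- 2. The joint model gave 1 in AID-Tada3, 1 in AID-Yeats2, 8 in Supt7l-/- (1.98% of all genes called higher) and 2 in AID-Zzz3. In 4sU against total RNA, the 3 became 8 with WT line as a replicate block and 1 to 7 without 1 library. With clone number as a replicate block AID-Yeats2 against Supt7l-/- kept its count of 9, as it did without any 1 library. In the joint model, leaving out 1 library gave 3 to 7 in AID-Tada3 and 2 to 9 in AID-Zzz3 against Supt7l-/-. Supt7l-/- pairs nearer to Tir1/BirA WT numbered 2 with spike-in scaling. The count at least 2-fold lower in total RNA was 8 under each of its 3 alternatives. The share of all genes called changed between settings too. A change in a count is therefore not read as particular to the 10 genes, and neither is a count given here without that share. The cause was not tested for any of these counts.

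Signs turned under spike-in scaling for Htra1 (-0.42) and Pramel7 (-0.038) in AID-Yeats2, Tmem108 (-0.23) in Supt7l-/-, and Hs6st3 (-0.32) and Cemip (-0.33) in AID-Zzz3, and in the joint model for Pramel6 (0.30) and Pramel7 (0.33) in AID-Zzz3. None of these was called. Others turned when 1 library was left out, given here as the lowest to highest log2 fold change over libraries left out. For AID-Tada3 against both WT lines the range was -1.11 to 0.67 for Rin3, -0.89 to 0.12 for Tmem117, -0.91 to 0.21 for Hs6st3, -0.66 to 0.64 for Cemip, -0.85 to 0.10 for Htra1, -0.43 to 0.25 for Mbnl2, -1.50 to 0.33 for Igsf21, -0.54 to 0.13 for Tmem108 and -2.66 to 0.53 for Pramel6. For AID-Yeats2 the range was -1.29 to 0.38 for Rin3, -0.90 to 0.16 for Tmem117, -0.69 to 0.46 for Hs6st3, -0.62 to 0.35 for Cemip, -0.31 to 0.63 for Htra1, -0.53 to 0.35 for Mbnl2, -1.28 to 0.52 for Igsf21, -0.82 to 0.18 for Tmem108 and -0.17 to 1.71 for Pramel7. For Supt7l-/- the range was -0.30 to 0.71 for Tmem108. For AID-Zzz3 the range was -0.48 to 0.96 for Hs6st3, -0.36 to 0.63 for Cemip, -0.60 to 0.42 for Htra1, -0.61 to 0.12 for Mbnl2, -0.93 to 0.18 for Tmem108, -0.55 to 0.77 for Pramel6 and -0.68 to 1.28 for Pramel7. For 4sU against total RNA the range was -0.68 to 0.61 for Htra1, -0.55 to 2.00 for Igsf21 and -2.64 to 0.66 for Pramel7. Igsf21, Pramel6 and Pramel7 rest on few counts in Tir1/BirA WT, which limits their precision.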
